A study of Mus musculus with 4 samples.

Results

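The 10 genes Axin2, Nkd1, Rnf43, Znrf3, Tcf7, Lef1, Sp5, Lgr5, Cd44 and Wisp1 are targets of the beta-catenin/TCF pathway, several of which also feed back on it. They were followed over 4 lines of L1210, a mouse lymphocytic leukemia cell line, among 24561 gene symbols on the array. Every probe that carried their symbols was taken, 19 probes in all, and this rule for probes takes no measured value into account. The genes themselves were chosen with earlier results of these data known. The study had already reported Lgr5 and Wisp1 among upregulated targets of the pathway, checked by real-time PCR. Among those of the 10 genes that were measured on both arrays, the highest ratios to the control line were those of Lgr5 and Wisp1. Lgr5 was 3.0-fold higher in L1210-Fbxw11a cells, 2.14-fold higher in L1210-Fbxw11c cells and 1.82-fold higher in L1210-Fbxw11d cells, and Wisp1 was 2.45-fold, 1.85-fold and 2.02-fold higher in the same order. Axin2, Znrf3 and Sp5 were not well above background in any line.

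In canonical Wnt signaling, a destruction complex marks beta-catenin for the SCF ubiquitin ligases, whose F-box subunits, Fbxw11 among them, bind the phosphorylated protein. Beta-catenin that escapes this fate enters the nucleus, where it binds TCF/LEF factors and turns on a set of target genes. Part of these targets, such as Axin2 and Rnf43, act back on the pathway as inhibitors. In the lymphoid lineages, Tcf7 and Lef1 are best known for their roles in early T and B cell development.

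All 4 groups were L1210 cells of the DBA subline 212, infected with lentivirus, sorted for GFP and kept as stable populations. The study compared overexpression of 3 splice forms of Fbxw11 with a control infection. Fbxw11a is the full-length form, and Fbxw11c and Fbxw11d lack exon sequence found in it. The control line is called L1210-control, and the variant lines, named L1210- followed by the splice form, are also called the a, c and d lines. Total RNA of each line was hybridised to 1 one-colour Agilent array. With 1 array per line there is no replicate check, so no test or p-value is given, and a difference between lines cannot be told apart from a difference between single cultures or arrays. The array of L1210-Fbxw11d lay on another slide than the other 3, so slide and variant cannot be told apart for that line. Overexpression of Fbxw11 was not seen at 2-fold on these arrays. Its brighter probe was 1.24-fold, 1.21-fold and 1.02-fold higher than control in the a, c and d lines, and its other probe 1.16-fold, 1.16-fold and 1.13-fold higher. Counted along the transcript, the first begins at base 3803 and the second at base 3692, and whether they read the RNA of the virus was not tested. The study checked the lines by RT-PCR and western blotting, which were not analysed here.

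Signals are given in intensity units on the scale of the control array, with the error that the scanner software gave for the single spot. A ratio is a difference of log2 signals between arrays, after each array was scaled to its 75th percentile, and its spread is the SD between replicate spots of other probes of like signal on the same arrays. That spread covers the printing and reading of the spots, not the cultures. In RNA of a whole population, fewer expressing cells and less RNA per cell cannot be told apart. A gene was called higher or lower at 2-fold, the threshold of the study. Where a probe was detected on 1 array of a pair and not on the other, the fold is a lower bound.

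The probe sequences show what part of each transcript was read. Both Wisp1 probes detected the gene, and 1 of them covers the end of its coding sequence, at chr15:66750958-66751017 on the plus strand of mm9. The capitals mark the stop codon.
Wisp1 coding end: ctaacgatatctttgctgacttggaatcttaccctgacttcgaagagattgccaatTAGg

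Cd44 was read by 4 probes, of which 3 are shown. Cd44 transcripts share their ends and differ by a block of alternatively spliced variable exons in the middle. The tail probe, at chr2:102654278-102654337 on the minus strand, holds the stop codon, again in capitals, and so reads forms that share this end. The other pair starts at bases 1777 and 1965 of the transcript, in what is known of the gene as its variable region, which was not checked against an annotation here. They lie at chr2:102677971-102678030 and chr2:102672645-102672704 on the same strand.
Cd44 tail: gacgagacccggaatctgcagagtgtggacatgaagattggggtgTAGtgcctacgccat
Cd44 variable, first: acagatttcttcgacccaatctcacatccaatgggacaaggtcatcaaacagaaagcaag
Cd44 variable, second: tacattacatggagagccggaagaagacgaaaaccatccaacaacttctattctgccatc

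For Lgr5, only 1 of the 2 probes filed under the symbol gave a signal. The detected probe lies at chr10:114887403-114887462 and starts at base 4618 of the RefSeq transcript. The silent probe lies at chr10:114900686-114900745 and was designed on an Ensembl transcript, and the scanner file does not name it Lgr5. Both are on the minus strand with a GC content of 35.0%, and the last 30 bases of each are printed here.
Lgr5 detected probe: ccagaatttgcttttctactgggctcaaaa
Lgr5 silent probe: taaaatacagatgtatacttacagacagcc

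Of the 19 probes, 10 were well above background on all 4 arrays, 2 on some of them and 7 on none. By gene, 5 of the 10 were detected in every line (Tcf7, Lgr5, Wisp1, Rnf43 and Cd44), and Nkd1 and Lef1 only in some. Each probe was a single spot, and no such spot was saturated or set aside as an outlier. The lowest signal well above background was between 10.4 and 18.1 on the 4 arrays, so a gene under this level has only an upper limit.

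**Figure D1:**
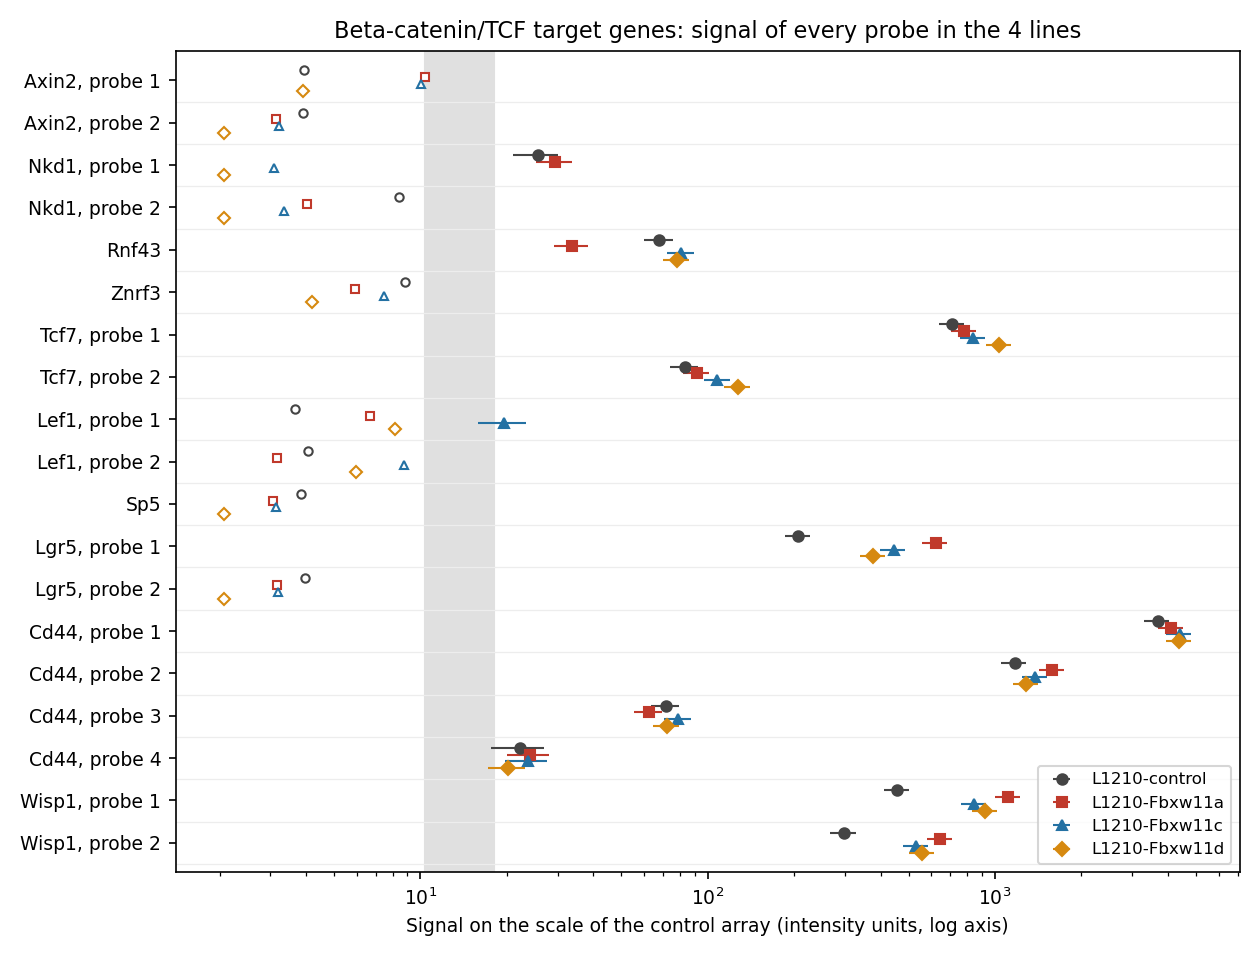
Signal of every probe of the 10 genes in the 4 lines, on a log axis in intensity units of the control array. Filled points are well above background and carry the scanner's error of the spot, open points are not, and the grey band spans the lowest signals well above background on the 4 arrays (10.4 to 18.1). The control line lies below the other 3 at both Tcf7 probes, at the brighter pair of Cd44 probes and at the detected probes of Lgr5 and Wisp1. Among these, its distance to the next line is larger for Lgr5 and Wisp1 than for Tcf7 and Cd44.

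Among the 10 genes, the feedback inhibitors were dim or silent. Axin2, the scaffold of the destruction complex and a widely used reporter of the pathway, gave between 3.89 and 10.4 at its brighter probe and between 2.07 and 3.91 at the other. Znrf3, a transmembrane ubiquitin ligase that removes Frizzled receptors, gave 8.86 in the control line and 5.92, 7.47 and 4.18 in the a, c and d lines. None of these signals was well above background, so no ratio between lines is given for either gene.

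Rnf43, the close relative of Znrf3 with the same action on Frizzled, was detected in every line by its only probe, at chr11:87548958-87549017. Its signal was 67.9 ± 7.76 in the control line and 33.7 ± 4.49, 80.6 ± 8.60 and 78.0 ± 8.07 in the a, c and d lines. L1210-Fbxw11a was thus the low line, and the other 3 lay within their errors. The log2 ratio of L1210-Fbxw11a to control was -1.01 with a spread of 0.566 between replicate spots, which is 2.02-fold lower and just past the threshold, but within 2 SD of replicate spots. With normexp, a model-based background correction, the same ratio was -0.44 and the call was lost. The log2 ratios of the c and d lines were 0.25 and 0.20, inside their spreads, and the second was -0.15 after normexp. The ratio of the d line was 0.79, past its spread of 0.478, with spike-in centring, which is explained below.

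Nkd1, an inhibitor that binds Dishevelled, was read at 25.6 ± 4.50 in L1210-control and 29.4 ± 4.19 in L1210-Fbxw11a. The same probe gave 3.09 in the c line and 2.07 in the d line, neither of them above the detection limit. The second Nkd1 probe gave 8.41, 4.03, 3.36 and 2.07 in the control, a, c and d lines and was not detected in any. The gene was therefore at least 1.72-fold lower in the c line and at least 2.46-fold lower in the d line, and only the second passes the threshold. On the log2 scale the bound in the d line was -1.30. It was -0.93 after normexp and -0.71 after spike-in centring, in which the arrays are aligned on RNA added in known amount, and neither passes the threshold. In the a line the log2 ratio was 0.20, within its spread of 0.613, and the mean of both probes turned it to -0.43.

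The transcription factors differed in whether they were detected at all. Tcf7, the T cell factor that pairs with beta-catenin on DNA, gave 709.8 ± 71.1 in the control line and 781.5 ± 78.2, 838.0 ± 83.9 and 1031 ± 103 in the a, c and d lines at its brighter probe. The log2 ratios to control were 0.14, 0.24 and 0.54 with spreads of 0.104, 0.096 and 0.118. The d line was the highest, and its distance from the next, the c line, was 0.30 on the log2 scale and exceeded 2 SD of replicate spots. The second Tcf7 probe gave log2 ratios of 0.14, 0.38 and 0.62 in the same order of lines, with spreads between 0.425 and 0.524. No line passed 2-fold, but with the arrays centred on the spike-in probes the ratio of the d line was 1.13.

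Lef1, the relative of Tcf7 known from precursor B and T cells, was detected in L1210-Fbxw11c only, at 19.5 ± 3.70 against 3.65 in the control line, 6.69 in the a line and 8.12 in the d line. Since the control signal was below background, the bound for the c line against control was 1.08-fold, a log2 value of 0.11 that lies inside the spread of 0.567 between replicate spots. The probe spans a splice junction, its ends lying 18162 bases apart on chromosome 3, and a second Lef1 probe was not well above background in any line. Sp5, a zinc finger repressor induced by beta-catenin, gave between 2.07 and 3.85 and was not detected in any line.

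Promoter sequence was searched for the motif of the TCF factors, and only that of Sp5 held it. RefSeq windows from 250 bases before to 50 bases after the start of the gene (GRCm38.p6) were at hand for 7 of the 10 genes, in 12 windows, and none was at hand for Lgr5, Wisp1 or Znrf3. CTTTGAT, searched on both strands, was found in 1 of these 12 windows and in 3.73% of all 32851 windows of the same length. CTTTGAA, searched likewise, was found in 0 of the 12 and in 5.14% of all. The Sp5 match begins 104 bases before the start, on the plus strand at chr2:70474789-70474855 of GRCm38.p6, with the motif in capitals. It is a description of the sequence, and the gene gave no signal in these cells.
Sp5 promoter: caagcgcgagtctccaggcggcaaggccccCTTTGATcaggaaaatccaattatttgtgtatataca

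Of the surface proteins, Lgr5, the R-spondin receptor that marks stem cells of the intestine, stood apart between the lines. The detected probe gave 206.8 ± 21.1 in the control line and 620.8 ± 62.2, 443.5 ± 44.5 and 376.1 ± 37.7 in the a, c and d lines. All 3 variant lines were above the control by more than the errors of the spots. The log2 ratios to control were 1.59, 1.1 and 0.86 with spreads of 0.168, 0.165 and 0.188, so the a and c lines passed 2-fold and the d line did not. In order of level, a was above c by 0.49 and d above control by 0.86, both over 2 SD of replicate spots, while c and d, 0.24 apart, did not differ by that much. Of the genes measured on both arrays, 0.375% had a higher ratio than Lgr5 in the a line, 0.786% in the c line and 1.34% in the d line.

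The Lgr5 values rest on 1 spot per array. The silent probe gave between 2.07 and 3.96, and averaging it with the other would bring the log2 ratios to 0.63, 0.39 and -0.04. The call in the c line was also lost with normexp, at 0.94, and with spike-in centring, at 0.95. The d line passed 2-fold with median centring, at 1.08, and with spike-in centring, at 1.45.

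Cd44, the hyaluronan receptor of leukocytes, was by contrast near level. The tail probe gave 3682 ± 368 in the control line and 4089 ± 409, 4389 ± 439 and 4369 ± 437 in the a, c and d lines. The control was the lowest of the 4, and the log2 ratios were 0.15, 0.25 and 0.25 with spreads of 0.088, 0.079 and 0.105. Under the other settings the ratio of the d line ran from 0.06 with the mean of all probes to 0.83 with spike-in centring. A probe further along the transcript gave ratios of 0.43, 0.24 and 0.13, so the order of the variant lines was not the same at both. Of the pair further upstream, the first probe gave between 62.5 and 78.7 and the second between 20.1 and 24.0, and both were detected in every line. Their log2 ratios to control lay between -0.19 and 0.14, with spreads of 0.44 to 0.884, and no line differed from control beyond them.

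Wisp1, a secreted CCN family protein of the extracellular matrix, was higher in all 3 variant lines at both of its probes. The brighter probe, at chr15:66754637-66754696, gave 455.4 ± 45.7 in the control line and 1114 ± 111, 843.1 ± 84.4 and 921.4 ± 92.2 in the a, c and d lines. The coding-end probe gave 297.0 ± 30, 644.4 ± 64.5, 530.8 ± 53.2 and 559.0 ± 55.9 in the same order. Both probes ranked the lines alike, with a first, then d, c and control. On the log2 scale a was above d by 0.274 at the brighter probe, over 2 SD of replicate spots. At the coding-end probe this distance was 0.205, within 2 SD.

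The log2 ratios of Wisp1 to control were 1.29, 0.89 and 1.02 for the a, c and d lines at the brighter probe, with spreads of 0.116, 0.111 and 0.130, and 1.12, 0.84 and 0.91 at the other. The a line passed 2-fold at both probes, the d line only at the brighter one, where it was 2.02-fold higher, and the c line at neither. From the lowest variant line, c, down to control the distance was over 2 SD of replicate spots at both probes, whereas c and d differed by 0.13 and 0.08, within 2 SD. Of the genes measured on both arrays, 0.727% had a higher ratio than Wisp1 in the a line, 1.35% in the c line and 0.828% in the d line. The call in the d line was lost with normexp, at 0.91, and with the mean of both probes, at 0.96.

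**Figure D2:**
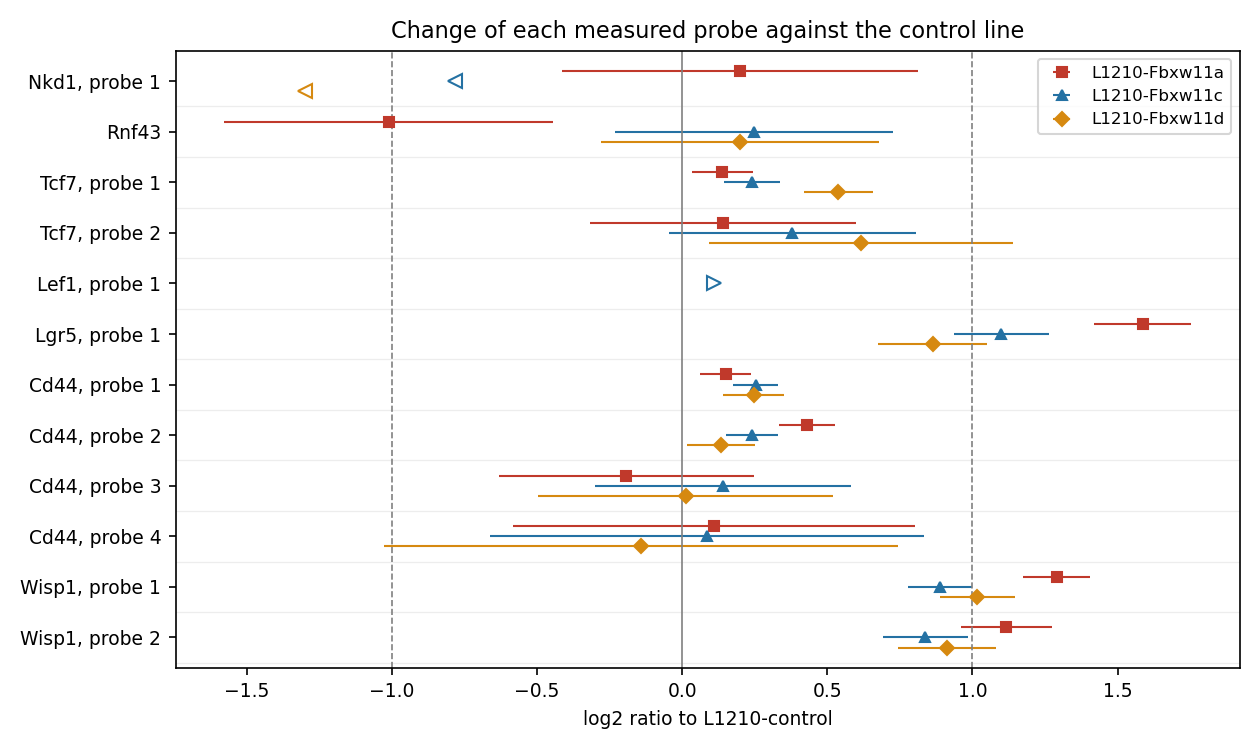
The log2 ratio to L1210-control of every probe that could be compared, with bars for the SD between replicate spots, and open triangles for bounds that point toward the side on which the true value lies. The dashed lines mark 2-fold. Lgr5 and Wisp1 lie near or past the right line in all 3 variant lines (0.84 to 1.59), Rnf43 lies at the left line in L1210-Fbxw11a alone (-1.01), and the other measured probes lie between the lines.

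Against the control line, 6 of the 10 genes could be compared in the a line, 7 in the c line and 6 in the d line. In L1210-Fbxw11a, 2 were called higher (Lgr5 and Wisp1) and 1 lower (Rnf43), where 2.43% of all genes compared were called higher and 2.02% lower. In L1210-Fbxw11c, 1 was called higher (Lgr5) and none lower, where 1.61% and 2.27% of all genes were. In L1210-Fbxw11d, 1 was called higher (Wisp1) and 1 lower (Nkd1), where 1.05% and 4.7% of all genes were. The median log2 ratio of the genes measured on both arrays was 0.18, 0.25 and 0.54 in the a, c and d lines, beside 0.004, 0.017 and 0.039 over all genes. These medians stand on 6, 5 and 5 genes and leave out those below background on 1 array, such as Nkd1 in the c and d lines. With such genes at their bounds, they were 0.18, 0.25 and 0.39 over 6, 7 and 6 genes, and the 3 comparisons share the same control array.

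The variant lines were also set against each other. Between L1210-Fbxw11a and L1210-Fbxw11c, Rnf43 was 2.39-fold lower in the a line and no gene was called higher, where 1.58% of all genes were called lower and 2.64% higher. Between L1210-Fbxw11a and L1210-Fbxw11d, Rnf43 was 2.31-fold lower and Nkd1 at least 2.83-fold higher in the a line, where 0.977% of all genes were called lower and 5.04% higher. After normexp, the log2 ratios of Rnf43 in these 2 comparisons were -0.56 and -0.29, both short of the threshold, and that of Nkd1 was 0.94. The Nkd1 call was also lost with spike-in centring, at 0.78. For the c line against the d line, 0 of the 6 genes compared were called in either direction, where 3.46% of all genes were called higher in the c line and 0.775% lower. With spike-in centring Tcf7 passed the threshold there, at a log2 ratio of -1.04, and with no filter on dim probes 2 genes were higher in the c line, Lef1 among them at 1.27.

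Lgr5 and Wisp1 were both highest in L1210-Fbxw11a. Lgr5 was 1.40-fold higher there than in the c line and 1.65-fold higher than in the d line, and Wisp1 was 1.32-fold and 1.21-fold higher at its brighter probe. With spike-in centring, which shifts the d line upward, Lgr5 was level between a and d (log2 ratio 0.005) and Wisp1 was lower in a (-0.45). Tcf7 had another order, with a log2 ratio of -0.40 in the a line against the d line, which was -0.61 with median centring and -1.12, past 2-fold, with spike-in centring.

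Further targets of the pathway, a list of 32 genes drawn from general knowledge, were compared in the same way. In L1210-Fbxw11a, 2 of the 21 compared were called higher and 1 lower, beside the 2.43% and 2.02% of all genes. In L1210-Fbxw11c, 0 of 20 were called higher and 2 lower, beside 1.61% and 2.27%, and in L1210-Fbxw11d 0 of 20 higher and 1 lower, beside 1.05% and 4.7%. Cdx1, a homeobox factor, gave 36.0 in control and 75.5 in the a line, a log2 ratio of 1.07, and 0.20 and 0.31 in the c and d lines. Dkk1, a secreted inhibitor of the Wnt coreceptors, gave 67.9 in control and 140.8 in the a line, a ratio of 1.05, but only 4.41 and 2.07 in the c and d lines, signals that did not count as detected. Its bounds there were -2.19 and -2.71 on the log2 scale. In the a line neither gene was called with normexp, where Cdx1 was at 0.47 and Dkk1 at 0.66, or with spike-in centring, where they were at 0.94 and 0.92. With normexp the ratios of Cdx1 in the c and d lines were -0.03 and -0.25, and the bound of Dkk1 in the c line was -0.98. As with Nkd1, the signal of this inhibitor was thus above background in the control and a lines and below it in the c and d lines.

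Tnfrsf19, a TNF receptor family member, was lower in the a line (log2 ratio -1.29) and undetected in the c line (bound -1.45), and its ratio in the d line was -0.93. With the mean of its probes the values were -0.96, -0.70 and -0.59, so the calls in the a and c lines were lost, and normexp gave no ratio in any line. Myc gave log2 ratios of -0.09, 0.07 and -0.20, and Ccnd1, cyclin D1, gave 0.28, 0.16 and 0.44, so neither of these growth genes was called. With spike-in centring the d line was at 1.02 for Ccnd1, past 2-fold, and at 0.39 for Myc, and with median centring at 0.02 for Myc. The median of the measured further targets was 0.08, 0.02 and -0.01 in the 3 lines.

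Of the 33 genes of the pathway's own machinery, 28, 27 and 29 could be compared in the a, c and d lines. Tle4, a Groucho corepressor, was the only one called, beside 2.02% of all genes called lower in the a line, at a bound of -1.58 in the a line, which was -0.62 with normexp and -0.96 with the mean of its probes. Ctnnb1, which encodes beta-catenin itself, gave 9625 in control, 9331 in the a line, 9995 in the c line and 12210 in the d line, with log2 ratios of -0.05, 0.05 and 0.34. With spike-in centring its ratios were -0.18, -0.10 and 0.93, and with median centring the d line was at 0.56. Tcf7l2 gave ratios of -0.10, -0.15 and -0.05, Lgr4, the sister receptor of Lgr5, gave -0.36, -0.06 and -0.10, and Tcf7l1 was not detected. The median of the measured machinery genes was -0.04, 0.03 and 0.002.

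**Figure D3:**
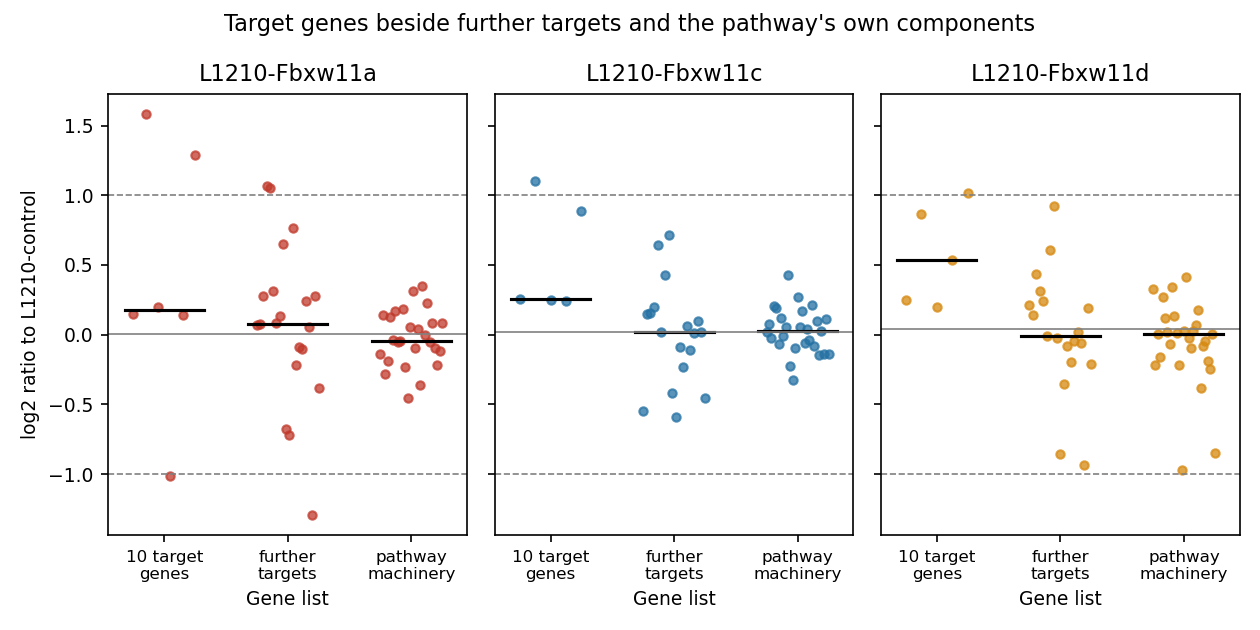
Each point is a gene measured on both arrays, placed by its log2 ratio to L1210-control, in the 10 target genes, the 32 further targets and the 33 genes of the machinery. Black bars are medians, the grey line is the median of all genes, and dashed lines mark 2-fold. The medians of the target genes measured (0.18, 0.25 and 0.54 over 6, 5 and 5 of the 10) lie above the grey line, with Lgr5 and Wisp1 as the highest of them in each of the 3 lines.

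The 75th percentile of the signals was between 620.2 and 954.2, and 62.5% to 68.7% of probes were well above background, both highest in L1210-Fbxw11d. Of 12 B lineage markers, 6 were detected on every array, while Cd79b, Ebf1, Ms4a1, Igll1, Rag1 and Rag2 were not detected on any, and 9 to 10 of 12 were detected among both the T lineage and the myeloid markers. Of 12 fibroblast and stroma markers, 7 were detected in the control line and 8 to 9 in the variant lines. Their summed signal was 115900 in control and 157400 to 185200 in the variant lines, mostly through Sparc, with 81520 in control and 124400 to 146600 in the variant lines. Col1a2 was also higher, with log2 ratios of 1.45, 2.10 and 2.05, whereas those of Fn1 were -0.05, 0.06 and -0.19 and those of Pdgfra -0.02, -0.55 and -0.70. The median ratio of the measured markers of this list was 0.04, 0.06 and 0.33, and Pdgfrb, Postn and Thy1 were not detected on any array. Like Lgr5 and Wisp1, this sum was higher in all 3 variant lines, and its part in their values was not tested. The summed T lineage signal, 4764 to 5152 and mostly Cd4, was lowest in the d line, in which Tcf7 was highest. Within this list Cd28 was over 2-fold lower in all 3 variant lines, with 192.4 in control and 85.5, 85.7 and 74.2 in the a, c and d lines, and Zap70 was so in the c line, at a log2 ratio of -1.1. Of the 10 T lineage markers compared, 1, 2 and 1 were called lower, beside 2.02%, 2.27% and 4.7% of all genes. Among those measured on both arrays, 6, 6 and 3 were above 0 and 3, 3 and 6 below. Their median log2 ratio was 0.05, 0.02 and -0.18 in the a, c and d lines. Whether these marker signals came from other cells or from the L1210 cells themselves was not tested. The part of these signals in the values of Tcf7, Lgr5 and Wisp1 was not tested either.

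The choice of processing moved some of these values past the threshold or back. Wisp1 stayed higher than control in all 3 lines under each of the 9 other settings tried, with log2 ratios between 0.74 and 1.60. Lgr5 stayed higher in the a and c lines under each, and in the d line under 8 of the 9. The 2 other filters on dim probes and the keeping of outlier spots could not move either gene. Their brightest probes were detected on every array and had no outlier spot.

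**Figure D4:**
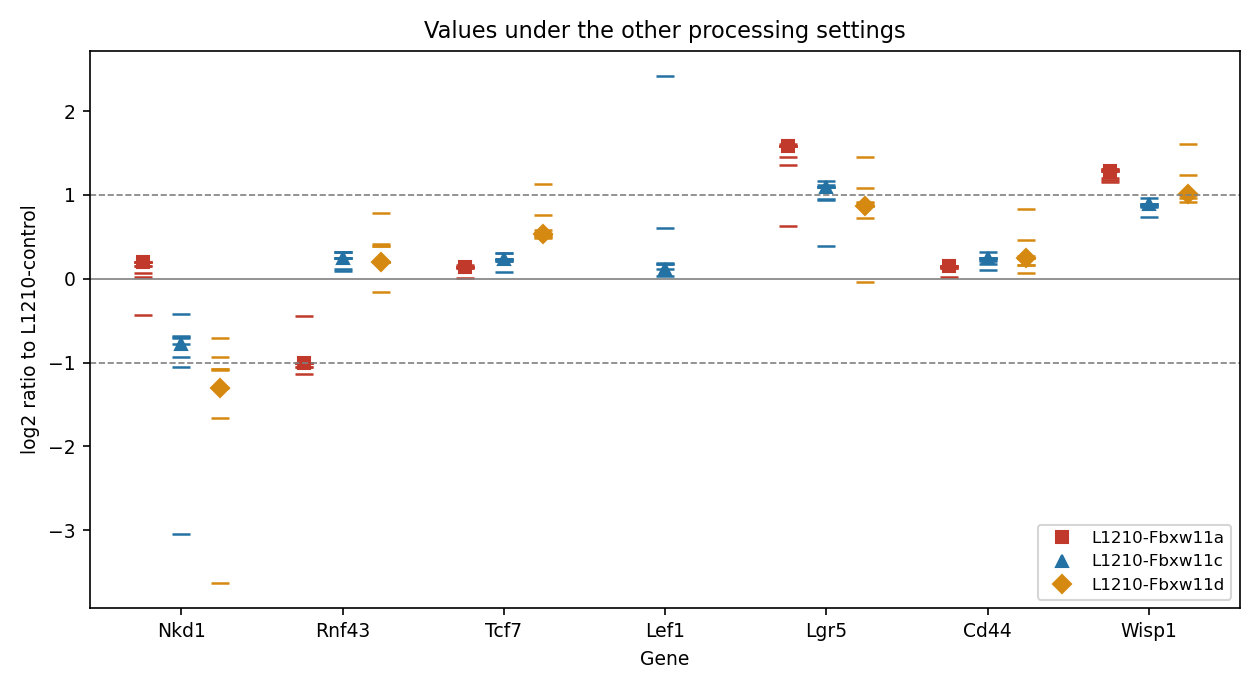
The log2 ratio to L1210-control of the 7 genes that could be compared, as reported (filled points) and under the other settings of background correction, scaling, filtering and probe choice (dashes). The dashed lines mark 2-fold. Wisp1 stays between 0.74 and 1.60, whereas the dimmest genes spread widely, down to -3.63 for Nkd1 and up to 2.42 for Lef1 when no filter on dim probes was used.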

How the data were processed

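The authors deposited the scanner output of each array, with background-corrected signal intensity and detection flags per spot, and a table of the same signals with normalized log2 values, gene symbols and mm9 positions. The file headers name Feature Extraction 10.7.1.1, whereas the submitters' processing notes name version 9.1. From the deposited intensity values, log2 of the processed signal minus the 75th percentile over gene spots of that array was computed. Quality-control spots and outlier spots were left out, spots of a probe were averaged, and detection of a probe required the scanner's flag for well above background on a share of 0.5 or more of its spots. A gene was represented by its brightest probe. Where 1 side was below background, its level was set to the higher of its own signal and the lowest signal well above background on that array. The spread of a ratio came from the 20 probes with replicate spots nearest in signal. Calls used 2-fold. All probes of the 10 genes are named, with every listed gene past 2-fold in a variant line against control and 6 fixed ones (Ctnnb1, Tcf7l1, Tcf7l2, Lgr4, Myc and Ccnd1). The genes and lists were chosen with earlier results of these data known. Alternatives were normexp correction (offset 50, limma 3.58.1 in R 4.3.3), quantile, median and spike-in scaling, the deposited normalized log2 values, 2 other filters on dim probes, outlier spots kept, the mean of all probes, and thresholds of 1.5 and 3. The steps were tested on simulated data. Python 3.11.15 with pandas 2.3.3 was used. An annotation of mm9 was not used here, so exons and UTRs were not assigned, and the stop codons and the variable region of Cd44 are given from general knowledge.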

Additional observations from a re-analysis of the deposited data

How the results depend on the processing

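With 1 array per line, no sample could be left out, and depth is set by signal over background: the dim genes Rnf43 and Nkd1 carry spreads of 0.452 to 0.613 against control. No paired analysis was possible because each group has a single array. Of the other values computed for the log2 ratios of the 10 genes, 278 moved by less than the spread and 56 by more, and no called ratio changed sign. Part of the 278 could not move, so their number is no measure of stability. The 10 genes had no outlier spots to keep, and the filters on dim probes cannot alter a gene measured on both arrays. Centring on the E1A spike-in probes moved the median of all genes by -0.13, -0.15 and 0.59 in the a, c and d lines, and median centring moved that of the d line by 0.22. Except where another comparison is named, the counts below are of genes called against control, and the cause of each move was not tested unless fewer probes or another threshold made it. No share of all genes called under these settings is set beside the counts. They therefore cannot tell a move of the lists from a move of the whole array.

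With normexp, the target genes called lower in a, higher in c, higher in d and lower in d were 0 each, the further targets called higher in a, lower in a and lower in c were 0 each, and the machinery genes lower in a were 0. With spike-in centring, the target genes were 0 higher in c, 3 higher and 0 lower in d, the further targets 0 higher in a and 3 higher in d, and the machinery 2 higher in d. With median centring, the d line had 2 target genes, 1 further target and 1 machinery gene called higher. With quantile normalization, and likewise with the deposited normalized values, 1 machinery gene was called higher and 1 lower in d. Without a filter on dim probes, the target genes were 3 higher in a, 3 higher and 1 lower in c and 2 higher and 2 lower in d, the further targets were 3 higher in a and 4 lower in d, and the machinery had 1 higher and 1 lower in d. With detection required on both arrays, 0 target genes were lower in d, 0 further targets were lower in c or d, and 0 machinery genes were lower in a. With the mean of all probes, the target genes were 1 higher in a, 0 higher and 1 lower in c and 0 higher in d, the further targets 0 lower in a and 1 lower in c, and the machinery 0 lower in a. At 1.5-fold, the target genes were 2 higher and 1 lower in c and 2 higher in d, the further targets 4 higher and 3 lower in a, 2 higher and 3 lower in c, and 2 higher and 3 lower in d, and the machinery 1 higher and 2 lower in d. At 3-fold, the target genes were 1 higher and 0 lower in a, 0 higher in c, and 0 higher and 0 lower in d, the further targets 0 higher and 0 lower in a and 1 lower in c, and the machinery 0 lower in a. Between the variant lines, the target genes called higher and lower in a against c (0 and 1 as reported) were 0 and 0 with normexp, 1 and 1 with spike-in centring and 1 and 2 with no filter. In a against d (1 and 1) they were 0 and 0 with normexp, 0 and 2 with spike-in centring, 2 and 1 with no filter, and 0 and 1 with detection on both arrays.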
